A study of Populus x canadensis with 3 samples.

Results

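The question examined here is which microRNAs (miRNAs) differ between poplar roots that received the higher of 2 doses of para-hydroxybenzoic acid (pHBA) and roots that received none. pHBA is a phenolic compound found in soils under repeated plantings, where it can slow the growth of roots. PHBA 4 is the root library of plants treated for 3 days at a labelled dose of 4 mML-1, and PHBA 0 is the library of plants given the same culture with a dose of 0. Both come from rooted cuttings of the hybrid Populus × euramericana "Neva", grown in water for 60 days without soil, and a further library, PHBA 2, had the lower dose. RNA of plants of 1 treatment was mixed before sequencing, so each dose is 1 library, no difference has a replicate check and no p-value is given. The intervals in brackets are 95% intervals that cover counting error only. The table holds 472 distinct sequences of 18 to 25 nt, of which 289 had a mean of at least 10 normalized reads over the 3 libraries and were compared. They rest on a library of 380800 reads in PHBA 4 and of 1434442 reads in PHBA 0, so 1 read stands for 1.5 normalized reads in PHBA 4 and 0.498 in PHBA 0. Only miRNAs are listed, so the root label was not checked against marker genes, and fewer cells of a type cannot be told apart from less miRNA per cell.

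A plant miRNA is cut from a hairpin transcript by DICER-LIKE1 as a duplex of 2 strands. One strand is loaded into an Argonaute protein, most often AGO1, and pairs along most of its length with a target mRNA, which is then cut or less translated. The other strand is mostly degraded. Most plant miRNAs have 21 nt. Those of 22 nt include the miR482 superfamily, with miR472 and miR1448, which acts on mRNAs of NBS-LRR immune receptors and can trigger secondary small RNAs from them. Names that begin with ptc are registered for Populus trichocarpa, and other prefixes stand for other plants (gma soybean, mtr barrel medic, vvi grape, ath Arabidopsis, mdm apple). MIR in capitals, with p5 or p3, stands for a strand of the hairpin without a mature registration. L and R with a number mark ends that differ from the registered sequence.

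Sequences are printed from the deposited table, 5′ to 3′ and in DNA letters, with the seed (bases 2 to 8) in capitals. The first set holds the 4 sequences with the largest deficits of reads in PHBA 4 and ptc-miR482c-3p of the same superfamily. It also holds ptc-miR482d-3p and ptc-miR156g, which were more abundant in PHBA 4.
ptc-miR472a: tTTTCCCTactccacccatccc
ptc-miR472b: tTTTCCCAactccacccatccc
ptc-miR1448_L+1R+1: tCTTTCCAacgcctcccatacc
ptc-miR482a.1_L+5: tCTTGCCTactcctcccattcc
ptc-miR482c-3p: tCTTTCCGagtcctcccatacc
ptc-miR482d-3p: tTGCCGACcccacccatgccaa
ptc-miR156g: tTGACAGAagatagagagcac
The miR472 pair differs at 1 base (T8A, from miR472a to miR472b, counted from the 5′ end), the last base of the seed.

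The second set shows how sequences of 1 family differ by their start, their end or 1 base.
ptc-miR166n_L+2R-2: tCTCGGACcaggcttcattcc
gma-miR166a-3p_L+1: aTCGGACCaggcttcattcccc
ptc-miR166a: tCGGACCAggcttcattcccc
mtr-miR166a_R-2_1ss19CT: tCGGACCAggcttcattct
ptc-miR396a: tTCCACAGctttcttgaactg
ptc-miR396c: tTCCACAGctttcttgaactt
ptc-miR167a_R-2: tGAAGCTGccagcatgatc
ptc-miR167e: tGAAGCTGccagcatgatctg
gma-miR6300: gTCGTTGTagtatagtgg
gma-miR6300_R+7_2: gTCGTTGTagtatagtggtgagtat

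The third set pairs strands of 1 hairpin with the widest gaps or the most reads, and adds single sequences with some of the largest differences.
ptc-miR482b-3p: tTACCAATacctctcatgccaa
ptc-miR482b-5p: gGCATGAGgtgtttggcaaga
ptc-miR171j_R+1: cGAGCCGAatcaatatcactc
ptc-MIR171j-p5: cGTGGTATtgatccggctcttc
ptc-miR164a: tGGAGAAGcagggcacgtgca
ptc-MIR164a-p3: cACGCGCTcttcttctccaac
ptc-MIR1448-p5_1ss20AG: tATGGGAGgattggacagtgc
ptc-miR168a-5p: tCGCTTGGtgcaggtcgggaa
ptc-miR398b: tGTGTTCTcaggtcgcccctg
ptc-miR160b-3p: gCGTATGAggagccatgcata
PC-5p-25263_273: gGAGAAGCagaggaatggc

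In PHBA 4 the short sequences, most of them named for other plants, were more abundant. The most abundant NBS-LRR regulators were less abundant, ptc-miR472a and ptc-miR472b only slightly so once totals were made equal. Of the 289 compared sequences, 130 differed at least 2-fold, which is 45%. A difference of at least 2-fold is a log2 of (PHBA 4 + 1) over (PHBA 0 + 1) of at least 1 in size, with a pseudocount of 1. Of them 69 were higher in PHBA 4, or 23.9% of those compared, and 61 were lower, or 21.1%. With both libraries scaled to the same total the split was 86 higher and 44 lower. Counts of members below are read against these shares, since with 1 library a side a large part of the table passes this limit. The counting interval of all 130 excluded a ratio of 1, which says that reads were enough and not that plants would repeat it. Large differences were more frequent where reads were few. They made up 54.2% of the 96 sequences with the lowest means, 44.8% of the 96 in the middle and 36.1% of the 97 with the highest means.

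**Figure D1:**
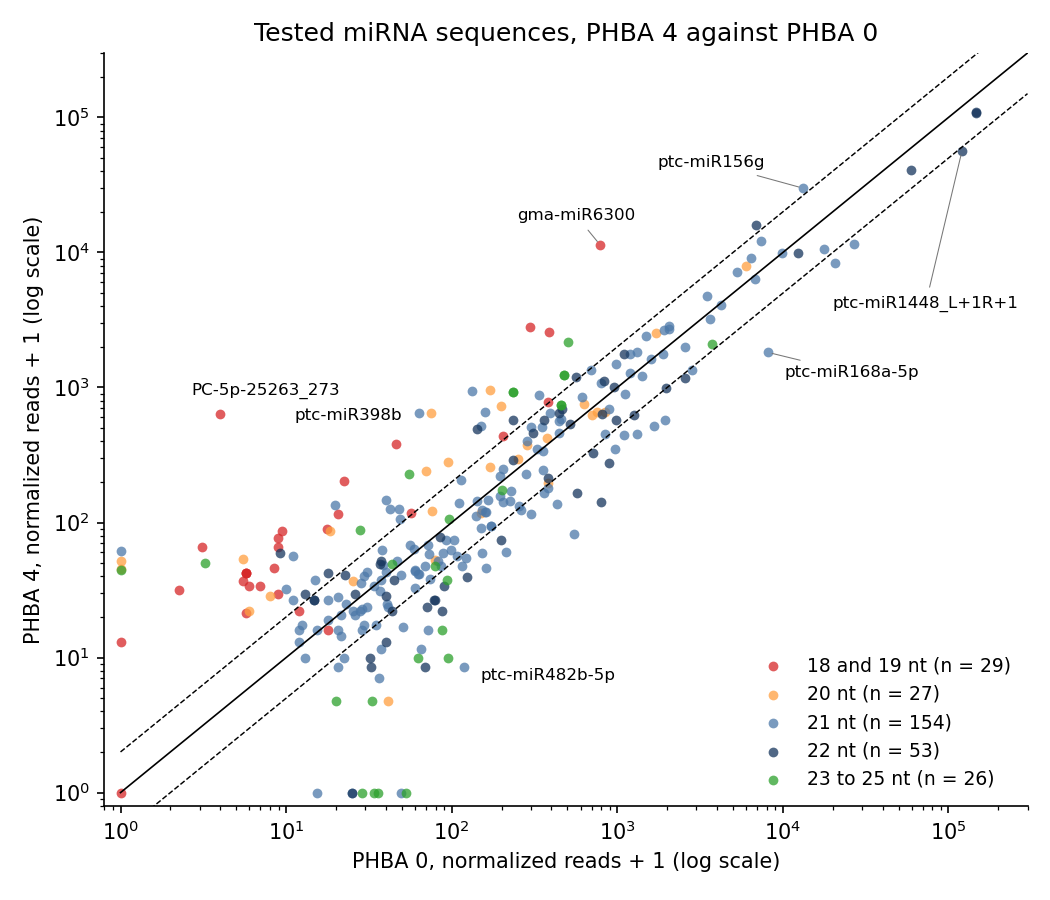
Normalized reads plus 1 of each compared sequence in PHBA 4 (vertical axis, log scale) against PHBA 0 (horizontal axis, log scale), 1 point a sequence, coloured by length. The solid line marks equal values and the dashed lines 2-fold differences. The 29 sequences of 18 and 19 nt lie almost all above the upper dashed line, gma-miR6300 and PC-5p-25263_273 among them.

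On the deposited scale PHBA 4 had fewer normalized reads in all, and that gap had about the size of the gap in the NBS-LRR regulators. The scale rests on a constant per library whose choice is not known here. With equal totals there is no such gap, so the sums below describe the deposited values only. The totals over distinct sequences were 571200 normalized reads in PHBA 4, against 715066 in PHBA 0. The miR472, miR482 and miR1448 families summed to 353818 in PHBA 4 and 501368 in PHBA 0, while all other sequences summed to 217382 in PHBA 4 and 213698 in PHBA 0, a log2 of 0.02. The near balance of the remainder includes short and doubted sequences. Without those under 20 nt and the families doubted as fragments of other RNAs it was 185784 in PHBA 4 and 207334 in PHBA 0, a log2 of -0.16.

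A few sequences made up most of the differences in normalized reads, again on the deposited scale. The 245 sequences that were lower in PHBA 4, by any amount, were lower by 224275 normalized reads in sum, and 4 of them, ptc-miR1448_L+1R+1, ptc-miR472b, ptc-miR472a and ptc-miR482a.1_L+5, held 70.6% of that. The 10 with the largest deficits held 90.6%. The 210 sequences that were higher summed to 80409.5 more, of which ptc-miR156g, gma-miR6300 and ptc-miR482d-3p held 45.5%. Reads were spread over more sequences in PHBA 4, where the 38 most abundant held 90% of normalized reads, against 25 in PHBA 0.

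As deposited, the most abundant NBS-LRR regulators were lower at different sizes. ptc-miR472a had 108879 normalized reads in PHBA 4, against 145690 in PHBA 0, and ptc-miR472b had 107680 in PHBA 4 and 146076 in PHBA 0. The miR472 sequences thus had log2 values of -0.42 and -0.44, a gap of 0.02 between seeds that differ by 1 base. ptc-miR1448_L+1R+1 had 56280 in PHBA 4 and 120549 in PHBA 0, a log2 of -1.10. With equal totals the log2 was -0.10 for ptc-miR472a, -0.12 for ptc-miR472b and -0.77 for ptc-miR1448_L+1R+1. Against this direction stood ptc-miR482d-3p, at 16075.5 in PHBA 4 and 6886 in PHBA 0. Its seed TGCCGAC differs from the other seeds printed in the first set. Of the 16 compared sequences of the 3 families 1 was at least 2-fold higher and 5 were lower. Their median log2 was -0.43, and -0.11 with equal totals, where the summed miR482 turned from -0.25 to 0.08.

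The direction of the differences went with length. All 9 sequences of 18 nt and 17 of 20 of 19 nt were at least 2-fold higher in PHBA 4, and 0 were lower. At 20 nt 11 of 27 were higher and 1 was lower. At the usual lengths more were lower than higher, with 16 higher and 31 lower of 154 at 21 nt, at a median log2 of -0.29, and 7 higher and 19 lower of 53 at 22 nt, at a median of -0.42. The tilt at 21 nt turns with equal totals, where 24 were higher and 19 lower at a median of 0.05, while at 22 nt 11 were higher and 15 lower at -0.06. Sequences of 21 nt made up 29.1% of the normalized reads in PHBA 4, against 25.4% in PHBA 0. At 24 nt 1 was higher and 7 of 10 were lower, with a median of -2.26, but these lower sequences were rare. The 24 nt sequences summed to 1783 in PHBA 4, against 1312 in PHBA 0, and of the 3 with a mean of at least 100 1 was higher and 0 lower, at a median of 0.71. Among these 3, gma-miR6300_R+6_1 and gma-miR6300_R+6_2, of a family doubted as fragments, share their values. Each is listed at 747 in PHBA 4 and 457 in PHBA 0, so they may be the same reads and make up most of that sum. At 23 nt 6 of 12 were higher and 3 were lower, and at 25 nt 2 of 4 were higher and 0 lower. The 2 higher at 25 nt, gma-miR6300_R+7_1 and gma-miR6300_R+7_2, share their values as well. The median over all compared sequences was 0.01.

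**Figure D2:**
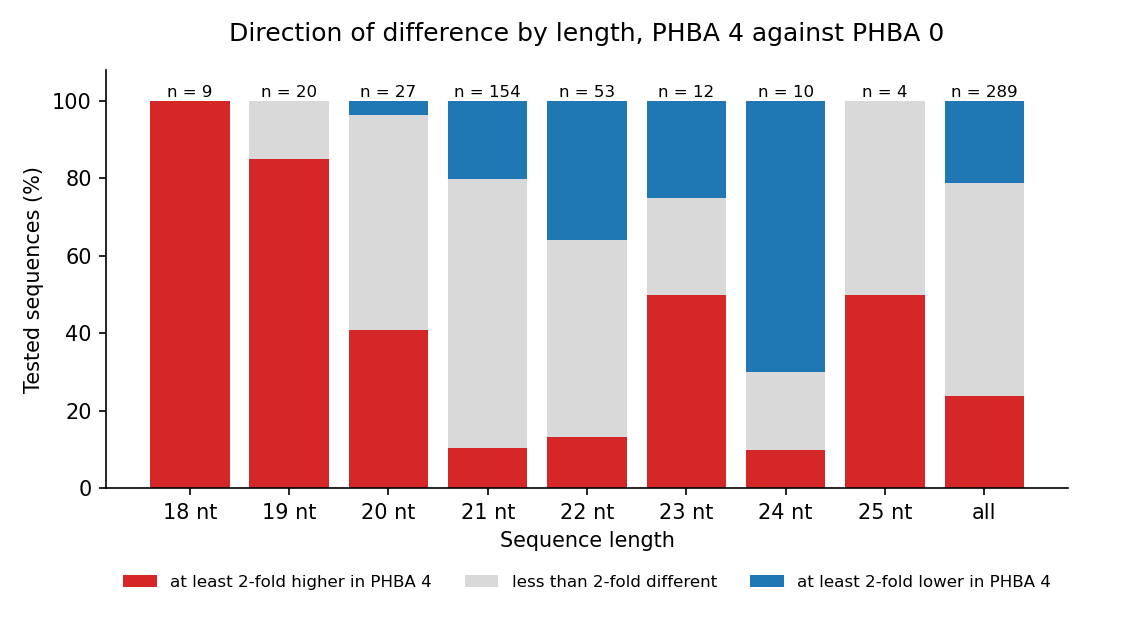
Share of compared sequences (vertical axis, %) at each length (horizontal axis, nt) that were at least 2-fold higher in PHBA 4 (red), less than 2-fold different (grey) or at least 2-fold lower (blue), with all 289 at the right. The red share is 100% at 18 nt and 85% at 19 nt, and the blue share is 70% at 24 nt, where none of the 3 sequences with a mean of at least 100 was lower.

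Annotation moved with length, and their parts cannot be told apart for the shortest sequences. Of 91 sequences named for other plants 47 were higher and 17 lower, at a median log2 of 1.14. Of the 64 registered poplar sequences 7 were higher and 14 lower, at -0.19 (0.15 with equal totals), and of 39 poplar sequences with shifted ends or changed bases 7 were higher and 3 lower, at 0.16. Of 84 unregistered strands of poplar hairpins 6 were higher and 23 lower, at -0.38 (-0.08 with equal totals). The lower share of these strands was 27.4%, and in sum they had 32551 in PHBA 4 and 33428 in PHBA 0. At 18 and 19 nt 23 of the 29 sequences had names of other plants, and 21 of these were higher. At 20 nt all 10 with names of other plants were higher, against 1 of 17 with poplar names. The usual lengths did not share this direction. Of 27 sequences of 21 nt with names of other plants 7 were higher and 7 lower, at a median log2 of -0.33. Of 19 such sequences of 22 nt 2 were higher and 9 lower, at -0.84.

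Among poplar names alone, a choice of sequences made after the length pattern had been seen, 3 of 4 sequences of 19 nt were higher and 0 lower. At 24 nt 1 was higher and 5 of 6 were lower, though in sum the 6 had 237 in PHBA 4 and 218 in PHBA 0, and the only one with a mean of at least 100, ptc-miR6476a_L+4, was the higher one. Among poplar names of 22 nt the registered sequences and the unregistered strands differed in direction. There 3 of 9 registered sequences were higher and 0 lower, against 1 higher and 8 lower of 14 unregistered strands. The larger class of 21 nt did not show this contrast. It had 4 higher and 14 lower of 50 registered sequences, against 4 higher and 9 lower of 54 unregistered strands. The first base, which in plants bears on which Argonaute takes up a small RNA, went with some difference in the shares. Of 133 sequences that begin with T, the usual start for AGO1, 23 were higher and 26 lower, or 17.3% and 19.5%. Of 48 that begin with A, 17 were higher and 11 lower, or 35.4% and 22.9%. At 21 and 22 nt alone 5 of 32 with A were higher and 8 lower, 12 of 112 with T were higher and 22 lower, and 3 of 37 with G were higher and 13 lower.

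Of the 26 sequences of 18 and 19 nt that were higher, 6 belong to families doubted as miRNAs, 15 to no family list and 5 to the other lists. The soybean name gma-miR6300, of a doubted family, had the most reads among them. It had 11406.7 normalized reads in PHBA 4, against 785 in PHBA 0, or 14.5-fold higher (13.8 to 15.3). Of the 25 compared sequences of miR6300, miR5368 and miR6478, families doubted as pieces of tRNA or rRNA, 20 were higher and 0 lower. No match of them to such RNAs was made here. Sequences outside every family list were also mostly higher, with 27 higher and 8 lower of 45. Of these 27, 15 are the sequences of 18 and 19 nt already counted above. Among these, both sequences of miR2916, at 3195 in PHBA 4 and 343 in PHBA 0 in sum, were 9.32-fold higher (8.54 to 10.2), and miR3630 was 7.73-fold higher (6.92 to 8.63). In sum miR8175 was 6.07-fold higher (5.62 to 6.56), with 5 of 6 sequences higher. Its sequence ath-MIR8175-p3_2ss18TC22AC overlaps gma-MIR6300-p3 of the doubted miR6300, with starts 2 bases apart, so the 2 sets are not fully separate. The part of fragments of other RNAs in the differences of the whole table was not tested.

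The predicted 19 nt PC-5p-25263_273 had the largest difference among sequences with a mean of at least 100, at 636 in PHBA 4 and 2.99 in PHBA 0, while it was listed at 0 in PHBA 2. Its fold of 213 (96.9 to 583) rests on 424 reads in PHBA 4 and 6 in PHBA 0. Of the 9 predicted sequences of 20 nt and more, 4 were lower and 0 higher by at least 2-fold.

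Sequences that share their first 16 bases and differ at the 3′ end were compared within their groups, where a change of scale moves both ends of a comparison alike apart from the pseudocount. There were 13 such groups with 48 sequences. Where several sequences of a group had the shortest or the longest length, their log2 values were averaged. The value at the shortest length was above that at the longest in 11 groups and below it in 2. The gap was 1 or more in 7 groups and -1 or less in 0, with a median of 1.32. Among the 7, the ptc-miR396a group had a shortest value of -0.36, an average of ptc-miR396a at -1.31 and ptc-miR396c at 0.60. Reads of sequences with a shared start may have been divided between entries, so these values are not fully separate counts.

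For the HD-ZIP III regulator miR166 the ends went opposite ways. The 19 nt mtr-miR166a_R-2_1ss19CT had 439.5 normalized reads in PHBA 4, against 202 in PHBA 0, 2.17-fold higher (1.86 to 2.53). The 21 nt ptc-miR166a had 11645.6 in PHBA 4 and 26893.8 in PHBA 0, 2.31-fold lower (2.25 to 2.37). The form of 22 nt, gma-miR166a-3p_R+1_1ss19CA, had 22.5 in PHBA 4 and 70.0 in PHBA 0, a log2 of -1.60. All 3 carry the seed CGGACCA.

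In the NF-YA regulator miR169 the 19 nt ptc-miR169r_R-2 had 65.4 in PHBA 4 and 2.10 in PHBA 0, a log2 of 4.42, while the longer ptc-miR169v, ptc-miR169i and ptc-miR169x_R+1 had log2 values of 0.29, 1.38 and 1.24. For miR167, which acts on the auxin response factors ARF6 and ARF8, the 19 nt ptc-miR167a_R-2 had 780 in PHBA 4 and 380 in PHBA 0. The 21 nt ptc-miR167e had 1757 in PHBA 4 and 1879 in PHBA 0. The short form was thus 2.05-fold higher (1.83 to 2.30) and ptc-miR167e 1.07-fold lower (1.00 to 1.14), the second of these directions turning with equal totals. The 22 nt members of the group had log2 values of 0.07 for ptc-miR167f-5p_R+1 and 0.85 for mtr-miR167b-5p_R+1_1 and mtr-miR167b-5p_R+1_2. In the gma-miR6300 group the log2 was 3.86 at 18 nt, 2.88 at 19 nt, 1.87 at 20 nt, 1.79 at 21 nt and 0.31 at 22 nt, then 1.39, 0.71 and 1.98 at 23, 24 and 25 nt. The order therefore held up to 22 nt and not beyond, and some forms of equal length share exactly the same values. The other way round was the MYB regulator miR159, where lus-miR159c_R+1 of 22 nt had a log2 of 0.67, ptc-miR159a of 21 nt 0.50 and mtr-miR159a_1ss21AT of 21 nt -0.30.

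**Figure D3:**
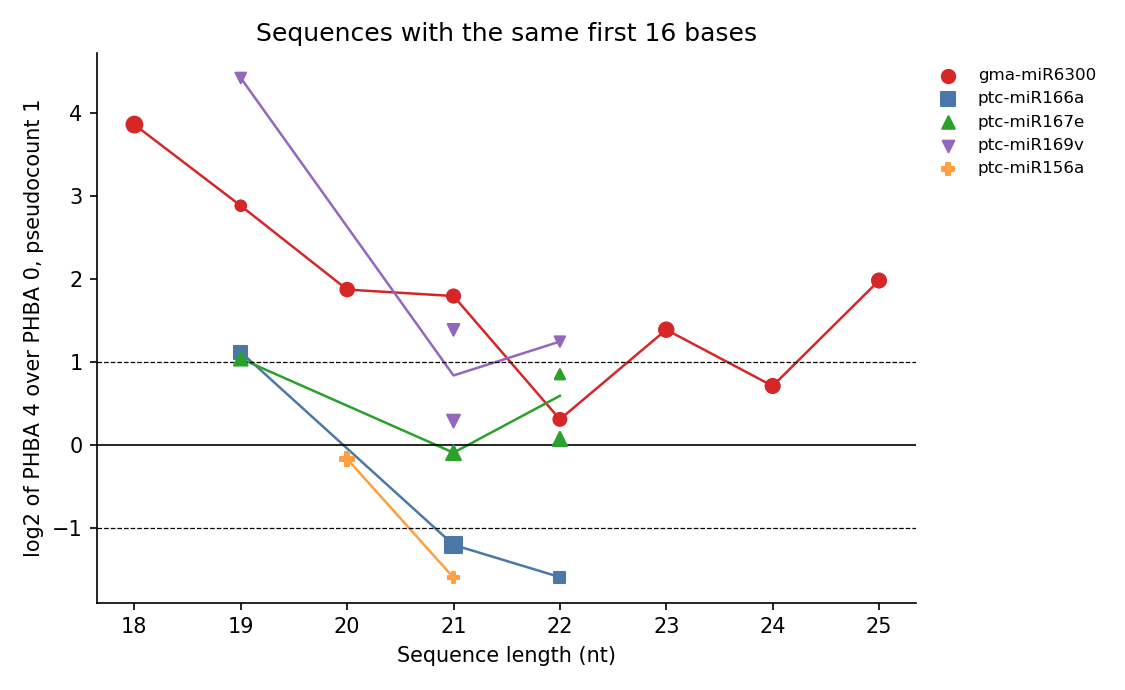
Log2 of PHBA 4 over PHBA 0 (vertical axis, pseudocount 1) against length (horizontal axis, nt) for sequences that share their first 16 bases, in 5 groups named for the most abundant member. Each point is a sequence, larger with more reads, and lines join the means at each length. The shortest point of the miR6300, miR166, miR167 and miR169 groups is at a log2 above 1, and longer points are lower.

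A shift of the 5′ end changes the seed, and some forms with different starts also differed. The pairs described in this paragraph and the next were chosen after their values had been seen. ptc-miR166n_L+2R-2, whose seed CTCGGAC lies 2 bases upstream of that of ptc-miR166a, had 9888.6 normalized reads in PHBA 4 and 9846.5 in PHBA 0, a log2 of 0.01 against -1.21 for ptc-miR166a. The form that starts 1 base upstream, gma-miR166a-3p_L+1, had 166 in PHBA 4 and 570 in PHBA 0, a log2 of -1.77. The log2 values of the 3 starts therefore did not follow the size of the shift. For miR408, which acts on mRNAs of copper proteins, ptc-miR408-3p had a log2 of 0.02 and the later start mtr-miR408-3p_L-1R+2 one of -1.55. Starts 1 base apart in miR168 lay close together, with a log2 of -1.996 for nta-miR168a_L+1_1ss22CA and -2.16 for ptc-miR168a-5p.

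Of 4 pairs that differ only at the last base and have unequal values, 1 had a gap of 1 or more in log2. ptc-miR396a and ptc-miR396c, regulators of growth-regulating factors, differ only at base 21 (T21G, from miR396c to miR396a). ptc-miR396a had 8290.8 normalized reads in PHBA 4, against 20612 in PHBA 0. ptc-miR396c had 1492.6 in PHBA 4 and 983 in PHBA 0, so the log2 was -1.31 for the G form and 0.60 for the T form. The same exchange in the AP2 regulator miR172 (T21G, from ptc-miR172d to ptc-miR172g-3p) went with log2 values of 0.18 for the T form and -0.53 for the G form. In miR166 the exchange T21C, from cme-MIR166i-p3 to ptc-miR166n_L+2R-2, went with values of 0.06 and 0.01, so a last base did not always go with a gap.

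The 2 strands of a hairpin come from the same transcript, but a sequence can belong to several hairpins. ptc-miR166a is listed 12 times and its partner strand ptc-MIR166c-p5 4 times, so the values of a pair may sum over different transcripts. In many pairs the strands did not move together. Both strands were compared for 54 pairs from 34 families, a few of which share a strand. The more abundant strand is the one with the higher mean of PHBA 4 and PHBA 0. Of the less abundant strands 18 were at least 2-fold lower and 6 higher, and of the more abundant strands 9 were lower and 3 higher. The median log2 was -0.51 for the less abundant strands and 0.00 for the more abundant ones. Within a pair the less abundant strand had the lower log2 in 33 and the higher one in 21, with a gap of -1 or less in 19 and of 1 or more in 8. Where both strands had a mean of at least 100, a limit added after these values had been seen, the counts were 12 and 10 of 22 pairs, with gaps of that size in 8 and 3, so the tilt in direction was smaller while wide gaps were again more often negative.

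The widest gap belonged to the NBS-LRR regulator miR482b. ptc-miR482b-5p had 7.5 normalized reads in PHBA 4, against 118 in PHBA 0, while ptc-miR482b-3p had 1125 in PHBA 4 and 828 in PHBA 0. The 5p strand was therefore 0.662% of the pair in PHBA 4 and 12.5% in PHBA 0. It rests on 5 reads in PHBA 4.

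For miR171j, whose family acts on GRAS transcription factors of meristems, the order of the strands turned. ptc-MIR171j-p5 had 141 in PHBA 4 and 800 in PHBA 0, 5.67-fold lower (4.61 to 7.06). ptc-miR171j_R+1 had 644 in PHBA 4 and 393 in PHBA 0, so the p5 strand was 17.96% of the pair in PHBA 4 and 67.1% in PHBA 0. In all, the strand with the lower mean was the more abundant one in PHBA 4 in 2 pairs and in PHBA 0 in 4 pairs.

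Other pairs opened the opposite way. The NAC regulator ptc-miR164a had 1349 in PHBA 4 and 2822 in PHBA 0, a log2 of -1.06. Its partner ptc-MIR164a-p3 had 145.5 in PHBA 4 and 39.4 in PHBA 0, a log2 of 1.86. For miR1448 the partner strand ptc-MIR1448-p5_1ss20AG had 12103.5 in PHBA 4 and 7349 in PHBA 0, so it was 1.65-fold higher (1.60 to 1.69) while ptc-miR1448_L+1R+1 was 2.14-fold lower (2.12 to 2.17). The p5 strand was 17.7% of the miR1448 pair in PHBA 4 and 5.75% in PHBA 0.

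**Figure D4:**
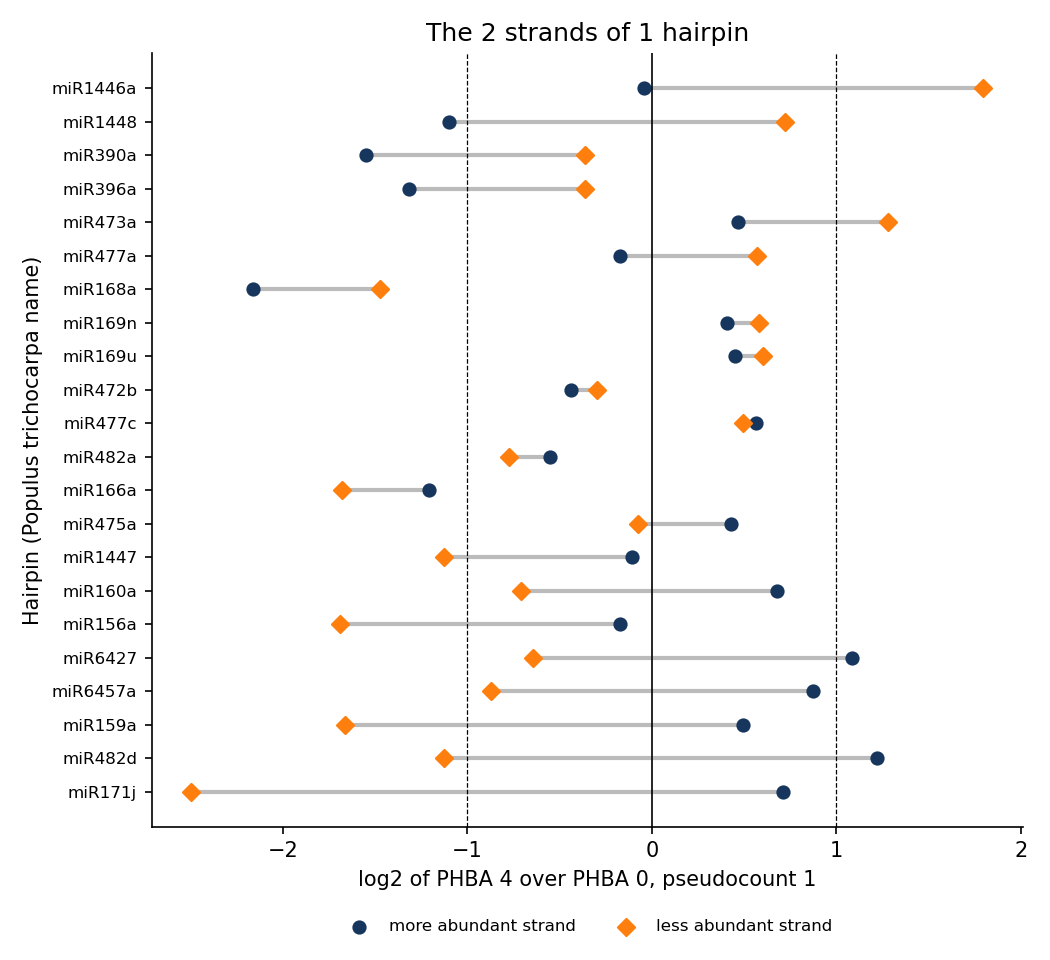
Log2 of PHBA 4 over PHBA 0 (horizontal axis, pseudocount 1) of the more abundant strand (dark circle) and the less abundant strand (orange diamond) for the 22 hairpins (vertical axis) in which both had a mean of at least 100 normalized reads. Dashed lines mark 2-fold differences. The diamond lies left of the circle in 12 hairpins, farthest in miR171j, and right of it in 10, with miR1446a and miR1448 at the top.

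In 4 of the 9 pairs whose more abundant strand was at least 2-fold lower, its partner was at least 2-fold lower too. In the AGO1 regulator miR168, ptc-miR168a-5p had 1818 in PHBA 4 and 8133 in PHBA 0, and all 4 compared sequences of the family were at least 2-fold lower. ptc-MIR166c-p5, the partner of ptc-miR166a, had 519 in PHBA 4 and 1667 in PHBA 0, 3.21-fold lower (2.88 to 3.60). Both strands of miR6446, a poplar family, were listed at 0 in PHBA 4 and had 32.9 and 27.9 in PHBA 0.

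The family lists were next set beside the shares of all compared sequences. Among families that act on developmental transcription factors the directions differed by family. Of 26 sequences of miR169, 6 were at least 2-fold higher and 0 lower, with a median log2 of 0.54, and the family had 23121 normalized reads in PHBA 4, against 18687 in PHBA 0. Its most abundant sequences, ptc-miR169n-3p and ptc-miR169t_L+2R-2, were 1.33-fold (1.28 to 1.37) and 1.36-fold (1.32 to 1.41) higher. Of 13 sequences of miR166 1 was higher and 5 lower, of 11 of miR396 0 and 4, of 9 of miR171 0 and 4, and of 7 of miR164 1 and 2. The summed miR164 family was 1.99-fold lower (1.88 to 2.11) and miR396 2.00-fold lower (1.95 to 2.04), while miR171 was 1.15-fold lower (1.10 to 1.199), a direction that turns with equal totals. Its most abundant sequence, ptc-miR171e, had 2688 in PHBA 4 and 2052 in PHBA 0.

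Among phase change regulators the summed miR156 family was 1.77-fold higher (1.745 to 1.803), at 34781.9 in PHBA 4 and 19610.5 in PHBA 0. Of 14 sequences of miR156, which represses SPL transcription factors, 1 was higher and 5 were lower. The higher one, ptc-miR156g, had 29959 in PHBA 4 and 13194 in PHBA 0, 2.27-fold higher (2.23 to 2.31). Of the 5 that were lower 4 are 3′ strands by name, as are 10 of the 14, and ptc-MIR156a-p3, at 274.5 in PHBA 4 and 889 in PHBA 0, was the most abundant. The miR172 family was 1.37-fold lower (1.23 to 1.51) in sum, a log2 of -0.45 that was -0.13 with equal totals. Its 3 compared sequences with the seed GAATCTT summed to 499.6 in PHBA 4 and 507 in PHBA 0, and 0 were 2-fold different. The unregistered strand ptc-MIR172e-p5 had 165 in PHBA 4 and 358 in PHBA 0.

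Auxin regulators were lower at the median, and 5 of their 8 sequences that were at least 2-fold lower are 3′ strands by name, as are 11 of the 24 compared. Among all compared sequences 20.4% of those with a 3′ name were lower, and 31% of those with a 5′ name. ptc-miR160b-3p, from a family that acts on repressive auxin response factors, had 81.0 in PHBA 4 and 550 in PHBA 0, 6.79-fold lower (5.17 to 9.10). It had the largest difference downwards among sequences with a mean of at least 100. In the same family ptc-miR160a had 2395.5 in PHBA 4 and 1495 in PHBA 0, 1.60-fold higher (1.51 to 1.70). Of the 24 sequences of miR160, miR167, miR390 and miR393 1 was higher and 8 lower, at a median log2 of -0.65. With equal totals the median was -0.27 over 23 sequences. The summed families differed, with a log2 of 0.11 for miR160, 0.03 for miR167, -1.35 for miR390 and -0.42 for miR393. The registered ptc-miR390a had 449 in PHBA 4 and 1317 in PHBA 0, 2.93-fold lower (2.60 to 3.31).

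Of 10 sequences of copper-responsive families 2 were higher and 2 lower, 40% in all, at a median log2 of 0.01 that turns negative with median-of-ratios factors. Both higher ones are miR398, while the summed miR1444 was 1.36-fold higher (1.29 to 1.43) and the summed miR408 1.03-fold lower (0.963 to 1.10), an interval that includes 1. The superoxide dismutase regulator ptc-miR398b had 643 in PHBA 4 and 62.6 in PHBA 0, 10.3-fold higher (8.38 to 12.6). The laccase regulator ptc-miR397a had 115.5 in PHBA 4 and 299 in PHBA 0, 2.59-fold lower (2.04 to 3.32). Among the 8 sequences of families that act on the small RNA machinery 0 were higher and 5 lower, 4 of these 5 from miR168. The list counts both strands of a hairpin, ptc-miR168a-3p among the lower ones, so not every member need act on such an mRNA. ptc-miR403c-5p, a 5p strand of a family that acts on AGO2 in Arabidopsis, had 576 in PHBA 4 and 1944 in PHBA 0. The other compared sequence of miR403 had a log2 of -0.55. ptc-miR162a, which acts on the DICER-LIKE1 mRNA, stood on the other side with 2861 in PHBA 4 and 2039 in PHBA 0.

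**Figure D5:**
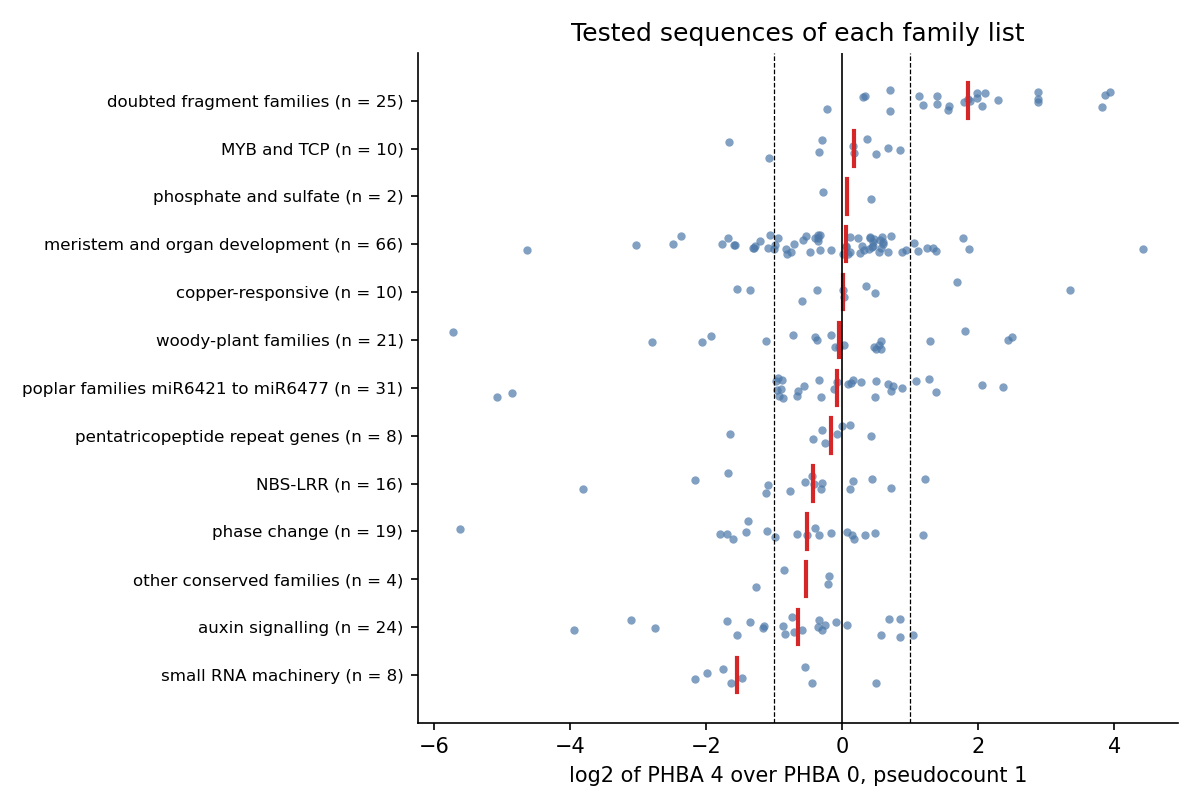
Log2 of PHBA 4 over PHBA 0 (horizontal axis, pseudocount 1) of every compared sequence in 13 lists of families (vertical axis), 1 point a sequence, with the list median as a red bar and 2-fold differences as dashed lines. The doubted fragment families sit apart at a median of 1.85, the small RNA machinery list at -1.55, and the other 11 medians lie between -0.65 and 0.17.

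Families known from woody plants were near the background, and poplar families had fewer differences. Of 21 sequences of miR473, miR477, miR481, miR1446, miR1447 and miR1450 4 were higher and 5 lower, 42.9% in all, at a median log2 of -0.04 that turns positive with equal totals. The summed miR473 family was 1.45-fold higher (1.39 to 1.51), with ptc-miR473a-3p at 571.5 in PHBA 4 and 234 in PHBA 0. miR1450 was 1.66-fold lower (1.61 to 1.70), at 10683 in PHBA 4 and 17685 in PHBA 0, nearly all of it ptc-miR1450_R-1. In miR481 3 of 4 sequences were lower. The apple name mdm-miR477b_R-2_2ss5TC20GC had 960 in PHBA 4 and 169 in PHBA 0, 5.68-fold higher (4.97 to 6.50), while ptc-miR477a-5p, the most abundant sequence of miR477, had 3206 in PHBA 4 and 3609 in PHBA 0, a direction that turns with equal totals.

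Of the 31 sequences of poplar families numbered miR6421 to miR6477, 5 were higher and 2 lower, 22.6% in all against 45% of the table. ptc-miR6427-5p had 1195.5 in PHBA 4 and 564 in PHBA 0, 2.12-fold higher (1.93 to 2.32). ptc-MIR6438b-p5_1ss11AG had 873 in PHBA 4 and 335 in PHBA 0, and ptc-miR6476a_L+4 had 229.5 in PHBA 4 and 54.3 in PHBA 0. The other 2 that were higher, ptc-MIR6456-p5_2ss6GA21CT and ptc-MIR6462a-p5, rest on few reads, and the 2 that were lower are the strands of miR6446. ptc-miR6445a, the most abundant of these sequences, had 1759.5 in PHBA 4 and 1102 in PHBA 0, 1.60-fold higher (1.49 to 1.71).

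Lists with few differences were those of MYB and TCP regulators, pentatricopeptide repeat genes and nutrients. Of 10 sequences of miR159, miR319 and miR858 0 were higher and 2 lower. ptc-miR159a had 9060 in PHBA 4 and 6425 in PHBA 0. Of 8 of miR475 and miR476 0 were higher and 1 lower. The phosphate-related miR827 and miR2111 had 1 compared sequence each, neither of them 2-fold different, and of 4 sequences of miR394 and miR530 0 were higher and 1 lower.

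Sequences listed at 0 in 1 of the libraries mark the edge of what the counts can show. Of the compared sequences 9 were listed at 0 in PHBA 4 and 6 in PHBA 0, and of all 472 distinct sequences 123 in PHBA 4 and 51 in PHBA 0. PHBA 4 has fewer reads, and a 0 may stand for a value under a minimum, so no fold is given. At 24 nt 18 of 29 distinct sequences were listed at 0 in PHBA 4 and 2 in PHBA 0, whereas at 18 nt it was 1 of 25 in PHBA 4 and 11 in PHBA 0. The highest values opposite a 0 in PHBA 4 were ptc-MIR481d-p3_1ss9AG at 52.1 and ptc-miR172h-5p at 48.2 in PHBA 0. Opposite a 0 in PHBA 0 stood hbr-MIR6173-p5 at 60.8 and gra-MIR7584e-p3_2ss12AC20AT at 51.0 in PHBA 4. The lowest means that passed the minimum were 10.3 (gma-MIR5376-p3_2ss16GA19GC, listed at 0 in both PHBA 4 and PHBA 0) and 10.4 (ptc-MIR393c-p3), and the highest that did not were 9.83 (PC-5p-110259_36) and 9.81 (ptc-MIR169s-p3).

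The PHBA 2 library, which had no part in these differences other than through the minimum, mostly lay between. Of the 69 sequences at least 2-fold higher in PHBA 4 the PHBA 2 value was between the values of PHBA 0 and PHBA 4 for 52, at or above both for 5 and at or below both for 12. Of the 61 that were lower it was between for 49, at or above both for 8 and at or below both for 4. Sequences chosen for a wide gap between the outer doses leave more room between them, so this is a description of the chosen sequences and not a test of a dose order.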

How the data were processed

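RNA of each treatment was mixed and made into 1 Illumina library, per the labels' protocols. The submitters' processing notes name bcl2fastq 1.8.4, a converter of base calls. The aligner, counting tool, miRNA release and genome build were not given in the sources used here. Genome positions were not used. The dose unit is labelled mML-1 and is not explained.

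The authors deposited, for each of 673 entries (a name with a sequence), an expected count per library, which need not be whole: 64.3% of values in PHBA 4 and 60.2% in PHBA 0 were within 0.0001 of a whole number. The deposited normalized signal is that count times 1 constant per library, 1.5 in PHBA 4 and 0.498 in PHBA 0 with no length term. How the constants were chosen is not known here. It was used as deposited. Each of 472 distinct sequences was counted once (151 have several entries, at most 12). Different sequences sometimes share all 3 values (11 of those compared).

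A fold is the plain ratio of normalized reads, while the log2 scale carries a pseudocount of 1. Its 95% interval is Clopper-Pearson's exact one for the split of reads between the 2 libraries, from expected counts rounded to whole reads, checked on simulated data. The labels name no molecular identifiers, and reads may be PCR copies of 1 molecule. There are 1 pooled library a dose and no replicates, so no test was made.

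The members, the family lists and the rule for named sequences were chosen with earlier results of these data known. The rule names the 10 largest differences each way at a mean of at least 100, the 10 most abundant sequences and the 10 largest gains and deficits of reads, the most abundant sequence of each listed family, end groups and strand pairs with the most reads or widest gaps, values opposite a 0 and neighbours of the minimum. Other sequences named were chosen after their values were seen. Alternatives were other scalings, minimums and pseudocounts, shared values counted once, and fewer names or lengths. Python 3.11.15 was used with pandas 2.3.3, NumPy 2.4.6 and SciPy 1.17.1.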

Additional observations from a re-analysis of the deposited data

How the results depend on the processing

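With each library scaled to the same total, the median log2 of compared sequences was 0.36 in place of 0.01, a shift of 0.35, and 86 were at least 2-fold higher and 44 lower, so 66.2% of those called were higher against 53.1% as deposited. Under this scaling 8 of 55 summed families changed sign, miR1446, miR1447, miR171, miR394, miR408, miR482, miR530 and miR6462, as did 3 of 13 list medians, those for pentatricopeptide repeat genes, miR6421 to miR6477 and woody-plant families. So did the class medians of 21 nt and of registered poplar sequences, and 8 of 85 named sequences, ptc-miR167e, ptc-miR477a-5p and ptc-miR482c-3p among them. Median-of-ratios factors gave 68 higher and 65 lower and changed the sign of summed miR167 and miR476, of the copper-responsive median and of ptc-miR166n_L+2R-2, ptc-miR408-3p and ptc-MIR481c-p3_2ss19CT21TC. Without a minimum on the mean 115 were higher and 159 lower of 472, where rare sequences listed at 0 in the smaller PHBA 4 library enter, and with a minimum of 100 there were 28 and 25 of 143. That minimum, for length classes an alternative chosen after seeing the data, turned the median at 24 nt to 0.71, over 3 sequences. Among the 3, gma-miR6300_R+6_1 and gma-miR6300_R+6_2 share all values. Without sequences under 20 nt and doubted families 29 were higher and 61 lower, and with poplar names alone 20 and 40 of 187. The pseudocounts 0.1 and 5 and shared values counted once left both counts between 59 and 69. At 18 and 19 nt 26 of 29 were higher as deposited, 29 of 30 with equal totals and 3 of 4 with poplar names alone, alternatives chosen after seeing the data. No paired analysis was possible because each dose is 1 pooled library. Depth limits sequences of a few reads in PHBA 4.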
